A study of Mus musculus with 8 samples.

Results

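Open chromatin was compared between mouse embryonic stem cells depleted of Ubc9 and their controls, across the whole of both deposited region lists. The depleted list held 48730 regions and the control list 46847, together 95577 of the 209105 regions in the 4 lists of the series. A region that overlapped 1 bp or more of a region in the other list was called shared, and the rest unshared. The rule fixed which regions were compared and used no result.

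Both groups were cells of the v6.5 line, taken after 4 passages in 2i/LIF, a medium that keeps stem cells in a naive state. In the Ubc9-depleted group the labels give a TET-OFF system, in which doxycycline shuts off Ubc9, and 72 hours of the drug. The Ubc9-control group carries no further genotype in the labels, and the drug is listed only beside the depletion, so doxycycline itself and the loss of Ubc9 cannot be told apart. The sources used here do not say whether the line is 1 clone. Each group had 2 replicates, and 50000 cells entered each ATAC-seq reaction, in which a transposase cuts and tags accessible DNA. Each list pools both replicates of its group, so the values below have no replicate check, and the differences are described without tests. Intervals are exact 95% intervals, binomial (Clopper-Pearson) for shares and from order statistics for medians, and cover counting error only. How deeply each library was sequenced is unknown.

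Ubc9 is the only conjugating enzyme of the SUMO pathway, which attaches small SUMO proteins to other proteins, many of them chromatin proteins. SUMO is known for roles at heterochromatin, at silenced repeats and in keeping cells from an earlier embryonic state. Accessible regions fall broadly into promoters, many of them rich in CpG dinucleotides and open in most cells, and distal elements such as enhancers, which differ more between cell types.

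The cell type was looked at first. Of 12 stem cell markers, 11 had a start peak in control cells and 10 in depleted cells. Esrrb had none in either list and Utf1 had one only in control cells. Of 12 fibroblast or feeder cell markers, 4 and 3 had one, of 6 markers of extraembryonic endoderm 3 and 2, and of 6 of trophectoderm 1 and 1. The fibroblast markers without one in either list include Col1a2, Col3a1 and Thy1, while Col1a1, Fn1 and Vim had one in both and S100a4 had one only in control cells.

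The promoters of 6 genes show the pattern that the gene results turn on, and are printed from RefSeq (GRCm38.p6, the coordinates of mm10). Each is the 250 bases before a listed transcription start, 5′ to 3′ on the gene's strand, with CpG dinucleotides in capitals. The first 2 pairs are the first genes, among those named below by size of change, whose region covers at least 50% of the 250 bases before a listed start. The first are Qrich1 (chr9:108516837-108517086, plus strand), whose shared start region stood higher in rank after depletion, and Ppa1 (chr10:61648371-61648620, plus strand), with a start region only in depleted cells. The second pair is Cldn3 (chr5:134985964-134986213, plus strand), which stood lower, and Gstm2 (chr3:107986421-107986670, minus strand), with a start region only in control cells. The third pair are the stem cell markers Klf4 (chr4:55532476-55532725, minus strand), higher in rank, and Nanog (chr6:122707239-122707488, plus strand), lower in rank. This pair was picked by name, and the markers Tfcp2l1 and Dppa5a were also higher in rank.
Qrich1: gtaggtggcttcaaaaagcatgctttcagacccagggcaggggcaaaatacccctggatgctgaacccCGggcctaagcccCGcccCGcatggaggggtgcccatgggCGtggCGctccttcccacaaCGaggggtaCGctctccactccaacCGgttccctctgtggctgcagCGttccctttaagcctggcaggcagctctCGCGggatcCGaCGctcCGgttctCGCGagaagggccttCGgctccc
Ppa1: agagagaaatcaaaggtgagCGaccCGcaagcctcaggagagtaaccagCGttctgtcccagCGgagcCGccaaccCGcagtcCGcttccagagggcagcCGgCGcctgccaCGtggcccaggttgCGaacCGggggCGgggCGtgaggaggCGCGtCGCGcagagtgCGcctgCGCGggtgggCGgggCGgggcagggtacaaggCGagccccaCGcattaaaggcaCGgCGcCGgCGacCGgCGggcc
Cldn3: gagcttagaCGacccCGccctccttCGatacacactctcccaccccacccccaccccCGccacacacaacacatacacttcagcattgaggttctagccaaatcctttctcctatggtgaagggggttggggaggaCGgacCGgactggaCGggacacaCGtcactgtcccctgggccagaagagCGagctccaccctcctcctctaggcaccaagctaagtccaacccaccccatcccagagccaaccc
Gstm2: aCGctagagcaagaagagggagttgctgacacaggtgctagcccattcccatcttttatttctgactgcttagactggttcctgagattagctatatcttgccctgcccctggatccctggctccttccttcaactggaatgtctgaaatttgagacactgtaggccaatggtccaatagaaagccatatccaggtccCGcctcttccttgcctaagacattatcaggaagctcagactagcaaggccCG
Klf4: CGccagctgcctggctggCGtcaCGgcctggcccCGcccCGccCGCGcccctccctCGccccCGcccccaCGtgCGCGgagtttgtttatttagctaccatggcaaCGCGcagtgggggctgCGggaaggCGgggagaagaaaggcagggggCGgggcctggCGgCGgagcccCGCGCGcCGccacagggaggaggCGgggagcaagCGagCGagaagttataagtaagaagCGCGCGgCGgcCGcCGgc
Nanog: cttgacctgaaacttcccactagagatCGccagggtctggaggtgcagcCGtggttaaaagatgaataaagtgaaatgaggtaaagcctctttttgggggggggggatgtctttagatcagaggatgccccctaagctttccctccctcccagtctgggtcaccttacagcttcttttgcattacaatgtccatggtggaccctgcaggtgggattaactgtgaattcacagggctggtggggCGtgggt
The printed stretches of Qrich1, Ppa1 and Klf4 hold 17, 31 and 32 CpG, and those of Cldn3, Gstm2 and Nanog hold 9, 3 and 3.

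Of the depleted regions, 22218 (45.6%) had no partner in control cells, and of the control regions 20276 (43.3%) had none in depleted cells. The same share was 31.4% and 28.8% in the other pair of the series, cells with the H1.2-/-H1.3-/-H1.4-/- triple knockout of linker histones against H1-WT cells, whose lists hold narrower intervals (medians of 259 and 273 bp, against 431 bp in the depleted and 367 bp in the control list). The unshared regions of the 2 lists lay in different parts of the genome. Depleted-only regions were outside genes in 70.1% of cases (95% interval 69.5 to 70.7), inside genes away from a start in 24.6% and at a gene start in 5.37%. Control-only regions were outside genes in 51.2% (50.5 to 51.9), inside genes in 43.5% and at a gene start in 5.28%. The median distance to the nearest start was 48.6 kb for depleted-only regions, 32.2 kb for control-only regions and 9.07 kb for shared regions of the depleted list.

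Depleted-only regions were also wider, with a median of 395 bp against 294 bp for control-only regions, and they reached higher scores. The score is the authors' own value per region, taken to be the MACS significance score (a higher score means a smaller p), and ranks regions within a list. In the highest-scoring decile of the depleted list 14.8% of regions were unshared, against 1.94% in the highest decile of the control list. In the lowest decile the shares were 67.2% and 75.5%. Gene starts were the most shared part of both lists, with 10.5% of depleted and 9.50% of control start regions unshared. Outside genes the shares were 60.8% and 50.9%, and inside genes they were 46.3% and 58.1%.

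**Figure D1:**
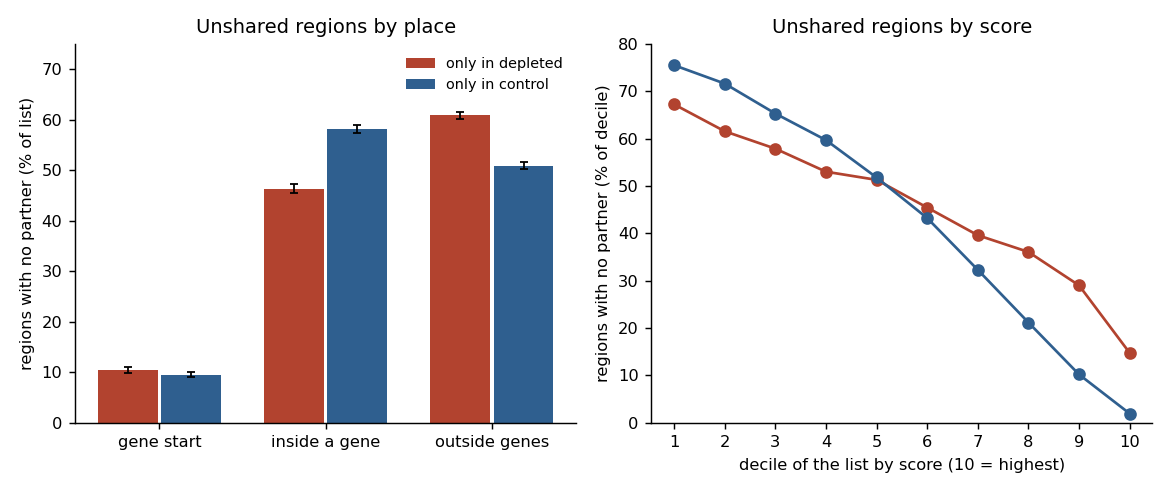
Share of regions with no partner in the other list, by place in the genome (left, bars with exact 95% binomial intervals) and by decile of the list by score (right), for the depleted list (red) and the control list (blue). At gene starts the shares are 10.5% and 9.50%, and in the highest decile the share is 14.8% in the depleted list and 1.94% in the control list.

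The 5 highest-scoring depleted-only regions met no region of either H1 list. They were chr11:22506672-22507692 (score 893, outside genes, 5.10 kb from the start of Tmem17), chr2:46281754-46282362 (885, outside genes, with Zeb2 the nearest start), chr12:91147664-91148202 (885, inside Cep128), chr6:17681420-17682214 (798, outside genes near St7) and chr5:64247448-64248595 (771, inside Tbc1d1 at the start of Gm46913). The 5 highest-scoring control-only regions all met a region in both H1 lists. They scored 525 to 586, and 4 lay outside genes, with B3galt2, Gfra2, Kcna4 and Irak1bp1 the nearest starts, while 1 lay inside Rbms1. Over all unshared regions, 5.95% of the depleted-only regions (5.65 to 6.27) and 46.1% of the control-only regions (45.4 to 46.8) met a region in both H1 lists. At gene starts these shares were 16.4% and 50.9%. The H1 cells are another line, so this gives only how often the position was also open there.

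Along the chromosomes, depleted-only regions outnumbered control-only regions most in windows without genes. In the 290 windows of 1 Mb that hold no protein-coding gene there were 2266 depleted-only against 1021 control-only regions, a ratio of 2.22. The ratio was 0.910 in windows with 3 to 5 genes and 1.32 in windows with over 20. The largest surplus lay on chromosome 12 from 19 to 20 Mb, with 30 depleted-only regions and 0 control-only regions, next to 26 against 3 from 18 to 19 Mb. The 7 genes of the first window all carry provisional symbols, such as Gm5784, and of the 5 in the second only Zfp996 has a settled one. Whether reads in these windows map to a single place could not be checked from the lists. Chromosome 13 from 21 to 22 Mb held 31 against 5, in a cluster of histone genes (H2bc13 to H2ac24), Zscan and Zkscan zinc-finger genes and olfactory receptor genes. Chromosome 7 from 15 to 16 Mb held 28 against 4, around Obox homeobox genes, which are active in the early embryo, and Crx. Of the 6 Obox genes 0 had a region within 1000 bp of a start in either list. Chromosome Y from 2 to 3 Mb held 24 against 0, with Sry, Zfy2 and Rbmy. Histone, Obox, Rbmy and olfactory receptor genes have close copies, so reads may map to the wrong copy.

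Among windows with a surplus of control-only regions, chromosome 6 from 134 to 135 Mb had 3 depleted-only and 32 control-only regions around Etv6, a repressor of the ETS family, the Wnt co-receptor gene Lrp6, Dusp16 and the cell cycle inhibitor gene Cdkn1b. Chromosome 10 from 95 to 96 Mb had 4 against 31 around Socs2, a feedback inhibitor of cytokine signalling, and Nudt4. Chromosome 2 from 135 to 136 Mb had 3 against 28 in the phospholipase genes Plcb1 and Plcb4, and chromosome 7 from 96 to 97 Mb had 5 against 29, where Tenm4 is the only gene. Chromosome 3 from 138 to 139 Mb had 4 against 26, with the alcohol dehydrogenase genes Adh1, Adh4 and Adh5. Across 2648 windows, depleted-only counts followed those of shared regions less closely (Spearman's rho 0.342) than control-only counts did (0.619). These are descriptions across windows, which share library and gene density.

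Most shared regions had exactly 1 partner, giving 26318 pairs (99.3% of the shared depleted regions). Split or joined regions were few: 104 depleted regions met several control regions and 45 control regions met several depleted ones. The percentile of a region's score among the paired regions of its own list (100 is the highest) was compared between the lists, and a difference of 20 points or more was called. Width was compared as the log2 ratio of depleted to control width, and called past 1.5-fold after subtracting the median of all pairs. By these rules 11.6% of the pairs were wider, 10.1% narrower, 19.4% higher in rank and 19.9% lower. A region just inside the rank threshold had moved 20.0015 points and one just outside 19.9939 points, and for width the nearest values were 0.585178 and 0.584854 on the log2 scale. Across pairs, Spearman's rho was 0.622 between the scores, 0.728 between the widths and 0.420 between width change and rank change, as descriptions over regions that share their libraries. Of the pairs, 1292 were both wider and higher and 1143 both narrower and lower, while 166 were wider and lower and 233 narrower and higher.

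Shared regions at gene starts moved the opposite way to those elsewhere. The 10075 pairs at starts had a median width of 603 bp in control and 698 bp in depleted cells, a median ratio of 1.10 (log2 0.13, 95% interval 0.13 to 0.15). The 16243 pairs away from starts went from 396 to 378 bp (log2 -0.02, interval -0.03 to -0.02). In rank the start regions gained a median of 5.67 points (5.23 to 6.11), with 25.4% called higher and 5.91% lower. Regions away from starts changed by a median of -5.90 points (-6.39 to -5.43), with 15.7% higher and 28.5% lower. Since ranks are taken within the same set of pairs, a gain in one class is a loss in the other. Regions inside genes (median -6.68 points) and outside genes (-5.39 points) both lost rank. With ranks taken in the whole of each list instead, unshared regions included, the medians were 2.04 points at starts and -10.7 points elsewhere.

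The split held in every quintile of the pairs by their mean percentile. In the middle quintile the median was +16.9 points at starts and -9.96 points elsewhere, in the lowest quintile it was 4.59 and -1.59, and in the highest 1.18 and -5.26. The width ratio at starts lay between log2 0.09 and 0.15 in all 5 quintiles, and elsewhere between -0.07 and 0.

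**Figure D2:**
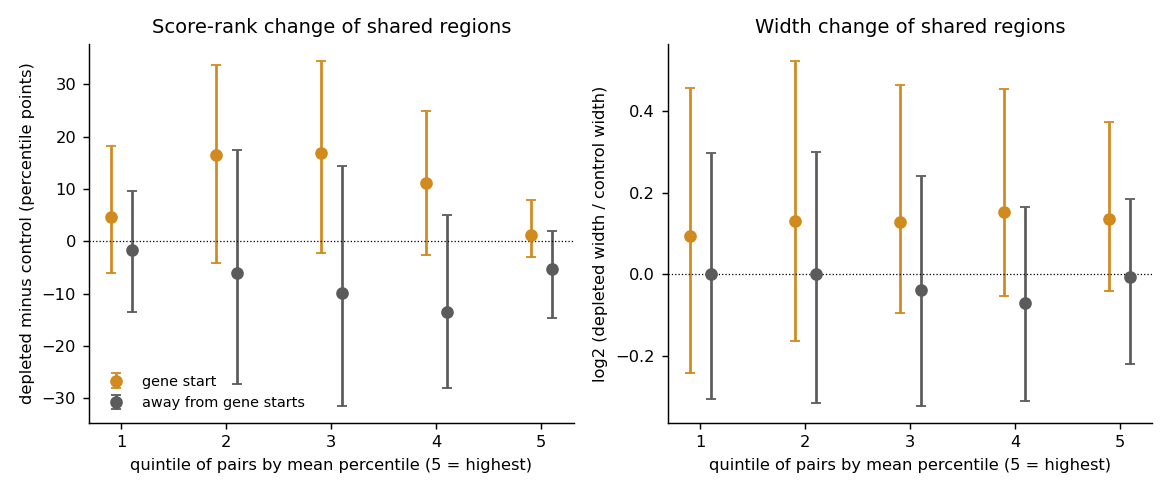
Change of the shared regions, depleted against control, for each quintile of the pairs by mean percentile (points are medians, bars run from the lower to the upper quartile), at gene starts (orange) and away from them (grey). The left panel gives percentile points, with medians at starts from 1.18 to 16.9 and elsewhere from -13.6 to -1.59, and the right panel the log2 width ratio.

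Among the chromosomes, the median rank change ran from -4.13 points on chromosome 6, -4.11 on chromosome 3 and -4.09 on X to 4.81 on chromosome 11, 5.44 on Y (99 pairs) and 9.50 on chromosome 19. On chromosome 19, 32.0% of the 634 pairs were higher in rank and 9.94% lower, and the median width went from 446 to 535.5 bp. On X, 15.2% of 803 pairs were higher and 23.2% lower. Chromosomes differ in gene density and base composition, and the part these play was not tested.

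The added width at starts lay more on the side of the gene body. Over 10300 listed starts with a shared region, the edge upstream of the start had moved outward by a median of 18 bp (16 to 20) and the edge downstream by 37 bp (35 to 40). A gene with several listed starts can count more than once. Of these starts 29.6% had a downstream edge more than 100 bp farther out and 15.0% an upstream edge. The downstream shift was the larger at 57.3% of starts and the upstream at 42.3%.

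Of the 4 kinds of called pairs, those lower in rank met a region in the H1 lists most often. Of pairs lower in rank 88.4% (87.5 to 89.2) met a region in both H1 lists, against 77.7% of all pairs and 60.4% (59.1 to 61.8) of those higher in rank. At gene starts the shares were 93.3%, 86.4% and 71.5%. A fall of 20 points is possible only from a high enough control percentile and a rise only from a low enough one. These classes therefore differ in control rank by construction, and the shares were not compared at like control rank.

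Gene by gene, a start peak was a region within 1000 bp of a listed RefSeq start, or of either gene end for the 4395 of 21887 protein-coding genes with no listed start. It was present in both lists for 10979 genes, only in depleted cells for 1101 (5.03% of all genes and 10.9% of the 10079 without a control start peak) and only in control cells for 829 (3.79%, and 7.02% of the 11808 with a control start peak). In the H1 pair the same counts were 4.08% and 4.54% of all genes. In 32 and 17 of these genes the peak overlapped a region of the other list outside the window. Among genes named below for size of change or score, Pura, Trim33, Zfp609, S100a10, Tep1, Lrrc6, Dnaaf1, Snx9, Ankrd66 and Aplnr have no listed start. Their peak lies at a gene end that may not be the start. A shared start pair could be followed in 10853 genes, of which 1686 (15.5%) were wider, 587 (5.41%) narrower, 2774 (25.6%) higher in rank and 578 (5.33%) lower. The median over these genes was 6.0 points in rank and 0.10 in relative log2 width.

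The base composition of the promoter moved with every one of these classes. Over the 300 bases around a listed start, 250 before and 50 after it, promoters with a start peak in both lists held a median of 22 CpG, those with one only in depleted cells 21, those with one only in control cells 9 and those with none 3. Promoters higher in rank held 25 and those lower 12, and wider ones held 26 and narrower ones 17. Among promoters without a control peak, the share that had one in depleted cells was 1.58% at 0 to 4 CpG, 5.97% at 5 to 9, 20.9% at 10 to 19, 41.8% at 20 to 29 and 57.1% (52.7 to 61.4) at 30 or more. Among those with a control peak, the share that had none in depleted cells went the other way, from 36.5% (32.1 to 41.1) through 23.0%, 8.04% and 2.43% to 1.56%.

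The median rank change of shared promoters ran from -6.66 points at 0 to 4 CpG through -2.81, 3.48 and 6.29 to 12.4 points (11.8 to 13.6) at 30 or more. The order was the same within each quintile of the control percentile. In the middle quintile the medians were -7.72 points under 10 CpG, 9.0 at 10 to 19, 18.7 at 20 to 29 and 25.1 at 30 or more. Depth and the base composition of the libraries are unknown here, and their part in this gradient was not tested.

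**Figure D3:**
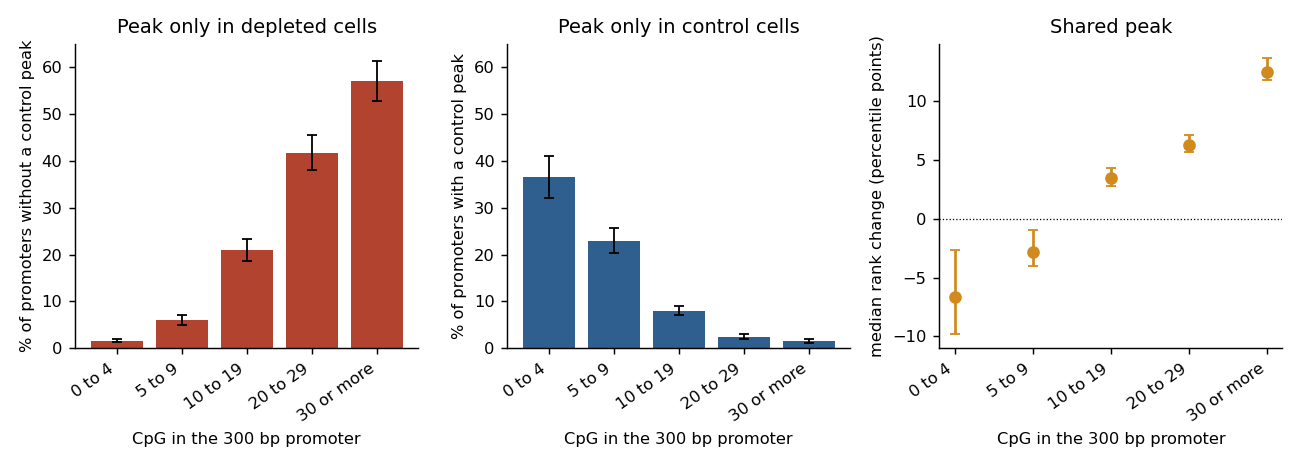
Promoters grouped by the number of CpG in their 300 bp (x axis): share with a peak only in depleted cells among those without a control peak (left), share with a peak only in control cells among those with one (middle), and median rank change of shared start peaks in percentile points (right), all with exact 95% intervals. The left share runs from 1.58 to 57.1%, the middle one from 36.5 to 1.56%, and the rank change from -6.66 to 12.4 points.

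Letters of known promoter motifs were counted in the same 300 bases on both strands, where a match is a description and not a binding site. The CCAAT box (CCAAT, bound by NF-Y) was in 38.2% of all 21238 promoters, in 28.6% of the depleted-only and 35.6% of the control-only promoters, and in 30.2% of those higher in rank against 46.6% (42.3 to 50.9) of those lower. The consensus NRF1 motif, a palindrome that itself holds CpG, was in 1.33% of all promoters and 3.97% of those higher in rank. It was in 0 of 539 promoters lower in rank, which allows a share of up to 0.557% (3 counts of the total; the exact 95% interval ends at 0.682%). The GC box (GGGCGG, bound by Sp and Klf factors) was in 46.2% of all promoters, 60.3% of the depleted-only and 41.2% of the control-only. It was in 70.9% of the higher and 46.4% of the lower. Promoters called higher or lower all had a peak in both lists. In that class the GC box was in 69.8%, the CCAAT box in 40.8% and the NRF1 motif in 2.20%. For the GC box the higher promoters were thus near their class, and the depleted-only lay below it. The share of all promoters includes those with no peak, at 17.6%. The octamer (ATGCAAAT, read by Oct4 and its relatives) was in 1.66% of all, 1.05% of the higher and 3.34% of the lower promoters. The GC box and the NRF1 motif hold CpG, so their shares are not independent of the CpG counts.

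The largest gains in rank among genes scoring 100 or more in both lists were 62.0 to 74.0 points. Pura, a DNA- and RNA-binding protein, went from percentile 18.9 to 92.9 (score 101 to 564). Qrich1 went from 19.9 to 90.9, with a width of 1308 and 1452 bp. Trim33, a ubiquitin ligase that acts on Smad signalling, went from 24.6 to 92.2 and from 729 to 1494 bp. The other genes named were Nt5c2, the poly(A) polymerase gene Papola, Zhx3, Pdik1l, the chromatin remodelling subunit gene Smarcd1, the pair Acap3 and Pusl1, which share a peak, and the pair Bap1 and Phf7, which also share one. Bap1, the deubiquitinase that removes Polycomb's mark from histone H2A, went from 27.4 to 89.4, at a width of 614 and 665 bp. Of these genes only Trim33 was also called wider.

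The largest losses in rank among the same genes were 46.8 to 57.8 points. Tspan9, a tetraspanin, went from percentile 92.1 to 34.3 (score 479 to 119). S100a10, a calcium-binding family protein that pairs with annexin, went from 81.1 to 26.8, and Cldn3, a tight junction protein, from 90.2 to 41.6. Zc4h2, Tep1, Fcor, Lrrc6, the guanylate cyclase gene Gucy1b1, Rabl2 and a downstream start of St7 completed the 10, of which only Gucy1b1 was also called narrower.

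The largest gains in width came mostly without a called gain in rank. Tfeb, a regulator of lysosome genes, went from 343 to 1816 bp (percentiles 25.6 and 28.3). L3mbtl3, a reader of histone methylation, went from 314 to 1633 bp while its percentile was 31.9 and 30.9. Dnmt3a, a DNA methyltransferase of the early embryo, went from 452 to 1893 bp, and Hoxa13 from 276 to 1154 bp. The others were Asmt, Ogfod2, Sh3rf3, Wsb1 and Zfp609. Of these genes only Sh3rf3 and Zfp609 were also called higher in rank.

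The largest losses of width were of similar size. Smim26 went from 1129 to 242 bp, the folate enzyme gene Aldh1l1 from 1454 to 317 bp, and Lsamp, a neural adhesion protein, from 1216 to 280 bp. Pdgfc, a growth factor, went from 2946 to 839 bp, and Pde5a, a cyclic GMP phosphodiesterase, from 1685 to 533 bp. Epb41l3, Sbk2, Kctd8, Mob3b and Ly75 were the others. Lsamp and Sbk2 were called higher in rank although narrower.

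Among genes with a settled symbol, the highest-scoring start peak found in depleted cells only was at Ppa1, an inorganic pyrophosphatase (chr10:61648327-61648857, score 439). It was followed by Crebbp, a histone acetyltransferase and co-activator (chr16:4213120-4214541, 1422 bp, 430), the translation factor gene Eif3d (426) and the co-activator gene Ncoa1 (361). Dnaaf1 and Hsdl1, which share a peak (361), Sfmbt1, a Polycomb-related repressor (348), the retinoblastoma relative Rbl1 (341), Rsrp1, Snx9 and Bend6 followed. These peaks were 531 to 1701 bp wide.

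Start peaks found in control cells only were narrower, at 253 to 866 bp. They were led by Ankrd66 (chr17:43534694-43535257, score 371), the receptor gene Aplnr (361), S100a1 and S100a13, which share a peak (352), the glutathione transferase gene Gstm2 (chr3:107986274-107986706, 325) and the caveolin gene Cav2 (292). Fgf23, Art5, Lrriq1, Fancd2os and Nt5c3 completed the list.

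The pluripotency network did not move as 1 block. Klf4, a reprogramming factor, went from percentile 62.7 to 95.3 (score 221 to 652, width 1069 to 1320 bp) and Tfcp2l1, a naive-state factor, from 42.3 to 64.6. Nanog, which holds cells in the naive state, went from 49.4 to 18.2 (score 173 to 89.2) at a width of 598 and 599 bp. Sox2 widened from 867 to 1642 bp and Klf2 from 664 to 1296 bp, and neither was called in rank. Oct4's gene Pou5f1 had a low-scoring start peak in both lists, at percentiles 11.1 and 3.90. Of the 37 members of the list, 26 had a pair to follow, of which 5 (19.2%) rose in rank and 2 (7.69%) fell (Nanog and L1td1), near the 25.6% and 5.33% of all genes. Of these members 3 (11.5%) were wider and 1 narrower, near the 15.5% and 5.41% of all genes. The list's median rank change was 3.78 points against 6.0 over all genes. Dppa3, a marker of naive cells (score 106), Utf1 and Gdf3 had a start peak in control cells only, as had Tdgf1, whose peak overlapped a depleted region outside the window, and Trim71 had one in depleted cells only. A gene's CpG number was taken as the highest among its listed starts with a shared region, and genes without such a start have none. Its median was 14.5 over 18 members of the list, against 23 over 8822 genes.

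Genes of the 2-cell embryo, the stage of zygotic genome activation, mostly lacked a start peak in control cells. Of 40 such members, 14 (35%) had one in depleted cells, against 10.9% of all genes without a control start peak, and of 8 with a control start peak 0 lost it, against 7.02% of all genes with one. Gm2016 (score 319), Zscan4f (306), Zscan4c (298) and Zscan4d (279), of which Zscan4 proteins mark this state, were the highest. Duxf3, of the Dux factors that switch on the 2-cell programme, had a shared start peak that widened from 1378 to 2549 bp (percentiles 71.6 and 89.9), and Gm5662 rose from 19.6 to 94.0. Zscan4, Usp17l and Tcstv genes are near-identical copies, so which copy the reads came from is uncertain. The 5 members of the list with a CpG number had a median of 11.

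Beside the genes picked by rule, members of the lists below include some chosen after their values were seen, to show each role.

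Of 24 genes of the SUMO pathway itself with a pair, 9 (37.5%) were higher in rank against 25.6% of all genes, and 0 were lower against 5.33%. Of the same genes 5 (20.8%) were wider and 0 narrower, against 15.5% and 5.41%, and the median rank change was 14.2 points against 6.0. The counts lower and narrower are near the background at this size. Sumo3, a SUMO protein, went from percentile 33.8 to 93.3 (score 132 to 575). Sae1 (32.1 to 78.1) and Uba2 (31.9 to 53.4) encode the subunits of the activating enzyme. The ligase genes Pias1 (50.2 to 90.4) and Pias2 (16.7 to 41.5), the protease gene Senp3 (45.9 to 81.7) and the SUMO-targeted ubiquitin ligase genes Rnf4 (62.6 to 94.2) and Rnf111 (51.0 to 88.2) were also higher. Nsmce2, another ligase, had a start peak in depleted cells only. The 18 members of the SUMO list with a CpG number had a median of 29.5, against 23 over all genes with one.

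Polycomb and trithorax genes, which encode the repressive and activating machinery of developmental genes, had the highest shares higher in rank and wider among the lists and families with 20 or more pairs. Of 30 members with a pair, 14 (46.7%) were higher in rank against 25.6% of all genes, and 0 were lower against 5.33%. Of these members 13 (43.3%) were wider and 1 narrower, against 15.5% and 5.41%, with a median rank change of 19.8 points and a relative log2 width of 0.49. Pcgf1, of the variant Polycomb complex 1, went from percentile 14.8 to 88.0 and from 841 to 1382 bp. Kmt2a, Kmt2c and Kmt2d, methyltransferases of histone H3, all rose in rank, Kmt2a from 12.1 to 67.8. The chromobox genes Cbx6 and Cbx7 rose in rank, Cbx7 from 4.56 to 63.3, and Cbx2 and Cbx8 were wider, Cbx8 from 661 to 1238 bp. Of the core genes of Polycomb complex 2, Ezh2 had percentiles of 69.4 and 87.3, Suz12 of 85.4 and 95.4, and Eed of 88.3 and 93.5, and the last 2 stood too high in control cells for a gain of 20 points to be possible. Ring1, Pcgf2 and Rbbp5 had a start peak in depleted cells only. The median CpG number was 28.5 over the 22 members with one.

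**Figure D4:**
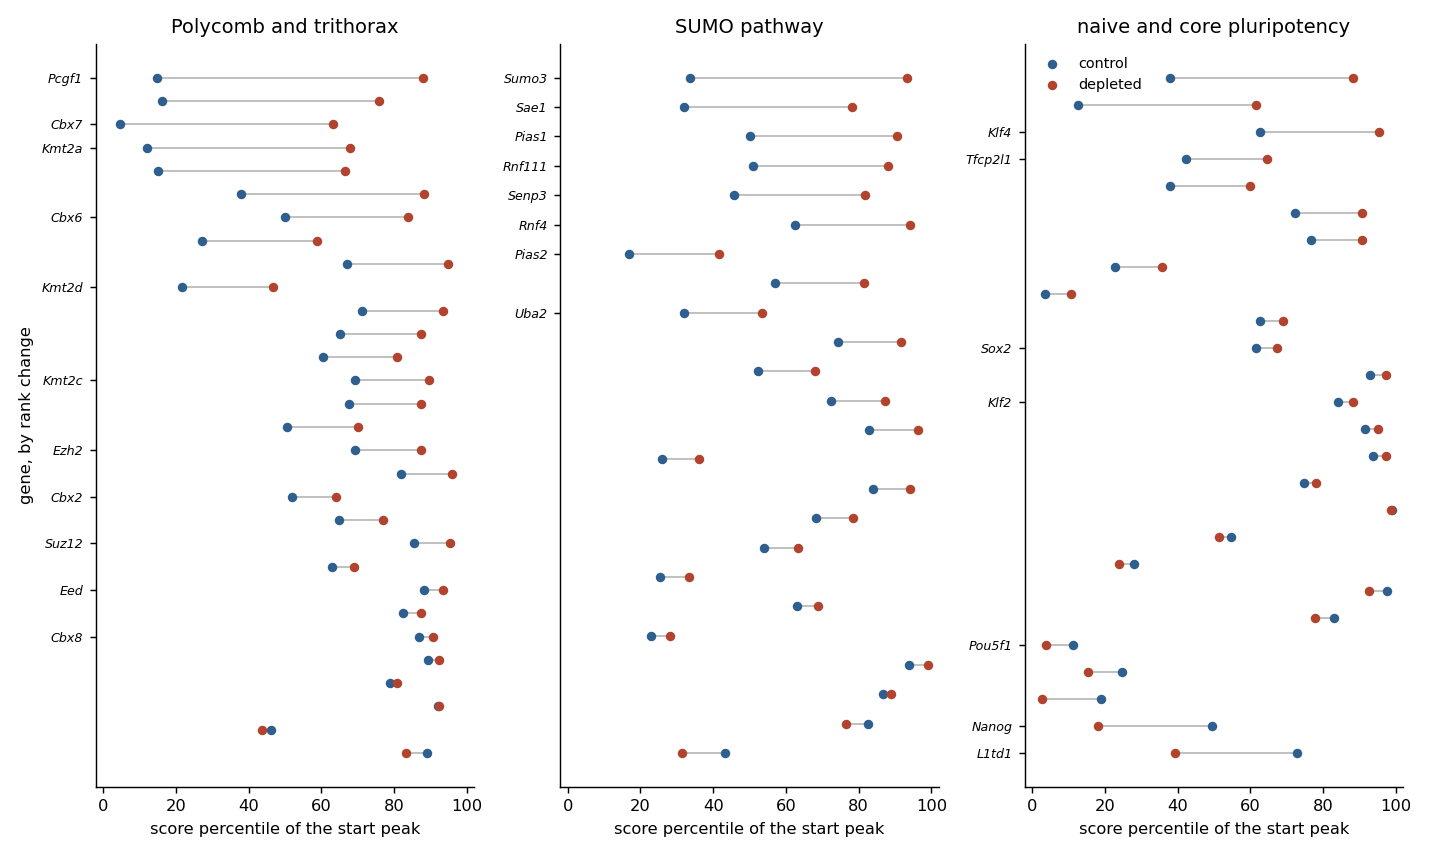
Score percentile of the shared start peak in control (blue) and depleted cells (red), for each member with a pair of the Polycomb and trithorax, SUMO pathway, and naive and core pluripotency lists, ordered by rank change, with some of those described in the text named. In the first 2 lists 14 of 30 and 9 of 24 members rose by 20 points or more and none fell by as much, and in the third 5 of 26 rose and 2 fell.

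Genes of heterochromatin and repeat silencing, in which SUMO has known roles, were near the background in rank calls. Of 32 with a pair, 9 (28.1%) were higher in rank and 0 lower, against 25.6% and 5.33% of all genes, and 8 (25.0%) were wider and 0 narrower, against 15.5% and 5.41%. The median rank change was 10.4 points. The heterochromatin protein genes Cbx1 (28.9 to 78.2) and Cbx3 (70.1 to 98.0, 1432 to 2507 bp), the H3K9 methyltransferase gene Setdb1 (47.3 to 72.1) and the demethylase gene Kdm1a (44.1 to 72.1) were among those higher in rank.

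Among genes of basic cell function, of 77 cytosolic ribosomal protein genes with a pair, 33 (42.9%) were higher in rank and 2 lower, against 25.6% and 5.33% of all genes. Those higher include Rps25 (8.25 to 71.9) and Rpl18 (6.82 to 66.0). Of 63 mitochondrial ribosomal genes 24 (38.1%) were higher and 4 lower, led by Mrpl49 (0.401 to 66.6). Core histone genes had 21 of 54 (38.9%) higher and 0 lower, with a median of 12 CpG, and complex I of the respiratory chain had 14 of 43 (32.6%) higher and 1 lower, nearer the background. Housekeeping genes had 10 of 24 (41.7%) higher, such as Polr2a (55.9 to 97.0) and Vps29 (49.8 to 93.2), and 1 lower, B2m, the light chain of MHC class I (62.2 to 7.77). Histone genes and many ribosomal genes have close copies, so reads may be split between them.

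Of genes that answer stress, the p53 targets had 8 of 22 (36.4%) higher in rank and 1 lower, against 25.6% and 5.33% of all genes. Those higher include Mdm2, the p53 ubiquitin ligase (51.9 to 84.8), and Bax, a pore-forming death protein (0.465 to 73.1, 682 to 1500 bp). Perp was the member that fell. The heat shock and unfolded protein genes had 6 of 25 (24.0%) higher and 0 lower, near the background, with Hsp90ab1 going from 11.3 to 67.2 and Atf4 from 61.2 to 97.3.

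Wnt signalling steers stem cells between self-renewal and mesoderm. Of 24 Wnt genes without a control start peak, 13 (54.2%) had one in depleted cells, against 10.9% of all such genes. They were the ligand genes Wnt1, Wnt2b, Wnt3, Wnt4, Wnt5a, Wnt7a and Wnt9a (score 233), the co-receptor gene Lrp5, the inhibitor genes Sfrp2, Sfrp5 and Notum, the receptor-clearing ligase gene Rnf43 (197) and the effector gene Tcf7 (189). Over all promoters without a control peak, the share with one in depleted cells was 41.8% at 20 to 29 CpG and 57.1% at 30 or more. The 17 Wnt genes with a CpG number, all with a shared start peak, had a median of 24. The part of CpG in the 54.2% was not tested. Receptor genes with a shared start peak also moved: Fzd2, Fzd3, Fzd6, Fzd9 and Fzd10 were both wider and higher in rank, Fzd3 from 14.7 to 74.5, and Apc, of the destruction complex, went from 7.15 to 79.1. Lef1, another nuclear effector, fell from 53.9 to 1.33, Porcn from 71.5 to 38.6, and Dkk1 and Lgr5 had a start peak in control cells only. In all, 9 of 29 (31.0%) were higher and 2 (6.90%) lower, near the 25.6% and 5.33% of all genes. FGF genes had 2 of 6 (33.3%) and TGF-beta and BMP genes 1 of 8 (12.5%) new start peaks, against 10.9% of all genes without a control start peak. At this size both are near the background. Fgf3, Fgf10, Fgf15 and Fgf17, 4 of 28 FGF genes with a control start peak, and Bmp4, Gdf3, Grem1, Smad9 and Tgfb3, 5 of 35 TGF-beta and BMP genes, had one in control cells only (14.3% of each list, against 7.02% of all such genes).

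For genes of later development, new start peaks are set against 10.9% of all genes without a control start peak and lost ones against 7.02% of all genes with one. The share of promoters with a new peak rose from 1.58% at 0 to 4 CpG to 57.1% at 30 or more. The part of CpG in the shares of these lists was not tested. Mesoderm genes had new start peaks at 6 of 21 (28.6%) members without one in control cells. They lost 0 of 9 control start peaks, which at this size is near the background. Hhex, a homeobox gene, went from 42.1 to 89.0. The 7 mesoderm genes with a CpG number had a median of 32, against 23 over all genes with one. Neural genes had 4 of 16 (25.0%) new, lost 0 of 18, and of 17 pairs had 6 wider (35.3%, against 15.5% of all genes) and 0 narrower (against 5.41%), such as the homeobox genes En2 (344 to 1683 bp) and Pou3f2 (437 to 1392 bp). The germline genes, many of them kept silent by promoter methylation in other tissues, had 7 of 15 (46.7%) new, led by Hormad1 (214) and Zp3 (188) beside Taf7l, whose peak overlapped a region outside the window, and 6 of 13 (46.2%, against 25.6% of all genes) higher in rank, among them Mael (14.0 to 72.9) and Dmc1 (45.1 to 76.6). Imprinted genes, whose 2 parental copies differ in methylation, had 8 of 17 (47.1%) new, with Mest (324) the highest, and 6 of 25 (24.0%) higher in rank and 0 lower, near the background, among them Cdkn1c (43.9 to 88.0) and Grb10 (17.0 to 63.0). Hox genes had 5 of 27 (18.5%) new, with Hoxa4 (225) the highest, and 3 of 9 higher in rank and 0 lower, such as Hoxd13 (0.777 to 60.5).

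Of the extraembryonic lists, trophectoderm had 1 of 14 (7.14%) new start peaks and lost 3 of 12 (25.0%), against 10.9% and 7.02% of all genes, and primitive endoderm had 3 of 16 (18.8%) new, with the basement membrane collagen genes Col4a1 and Col4a2 sharing a peak (142), and lost 3 of 9 (33.3%), among them Gata6 (129). Fibroblast and feeder genes had 2 of 17 (11.8%) new and lost 4 of 7 (57.1%). Genes of the primed and formative state had 3 of 8 (37.5%) new, among them the DNA methyltransferase gene Dnmt3b (134), and 4 of 13 (30.8%) higher in rank and 1 lower, against 25.6% and 5.33%. Linker histone genes had 3 of 6 higher and 0 lower, and Otx2, a formative state factor, had a start peak in control cells only (67.8).

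Synaptic genes and interferon genes were the lists of 9 or more pairs with a negative median rank change. Of 33 synaptic and neuronal membrane genes with a control start peak, 7 (21.2%) had none in depleted cells, among them Robo2 (132), against 7.02% of all such genes. Of 24 with a pair 4 (16.7%) were higher in rank and 5 (20.8%) lower, against 25.6% and 5.33%, with a median of -3.16 points. Csmd3 went from percentile 51.1 to 11, Robo1 from 64.3 to 22.1 and Dscam from 59.1 to 30.4. The 14 synaptic genes with a CpG number had a median of 26, above the 23 of all genes with one. The 7 interferon genes with one had a median of 14, below it. These numbers cover only genes with a shared start peak, and the part of CpG in the lost peaks was not tested. Among interferon genes the sensor gene Eif2ak2 fell from 76.9 to 10.1 and Gbp3 from 62.8 to 40.3, Trim25 rose from 23.6 to 68.2, and 9 of 18 (50.0%) with a control start peak had none in depleted cells, with Xaf1 (123) and the RNA sensor gene Ddx58 (87.5) among them.

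Among large gene families, of 83 zinc-finger genes named Zfp without a control start peak, 35 (42.2%) had one in depleted cells, against 10.9% of all such genes, with Zfp777 (305), Zfp575 (285) and Zfp101 (237) the highest, and 14 of 314 (4.46%) lost theirs, against 7.02%. Of 298 with a pair 73 (24.5%) were higher and 26 (8.72%) lower, near the 25.6% and 5.33% of all genes, and Zfp292 went from 0.0589 to 73.2. The part of promoter CpG in the 42.2% was not tested. Olfactory receptor genes, silent outside the nose, had 4 new start peaks of 1094, against 9 of 16 (56.2%) lost, among them Olfr452 (166), and 0 of 6 pairs higher in rank against 2 lower. The 4 olfactory receptor genes with a CpG number had a median of 1.5, against 23 over all genes with one, and its part was not tested. Actin cytoskeleton and focal adhesion genes had 3 of 24 (12.5%) higher and 1 lower, and cell cycle and replication genes 5 of 36 (13.9%) higher and 0 lower. Many of their members stood too high in control cells to gain 20 points, with median control percentiles of 76.9 and 76.6 against 64.6 over all genes. Of the members that could, the shares were 3 of 13 (23.1%) and 5 of 21 (23.8%), against 37.5% over all 7405 such genes.

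**Figure D5:**
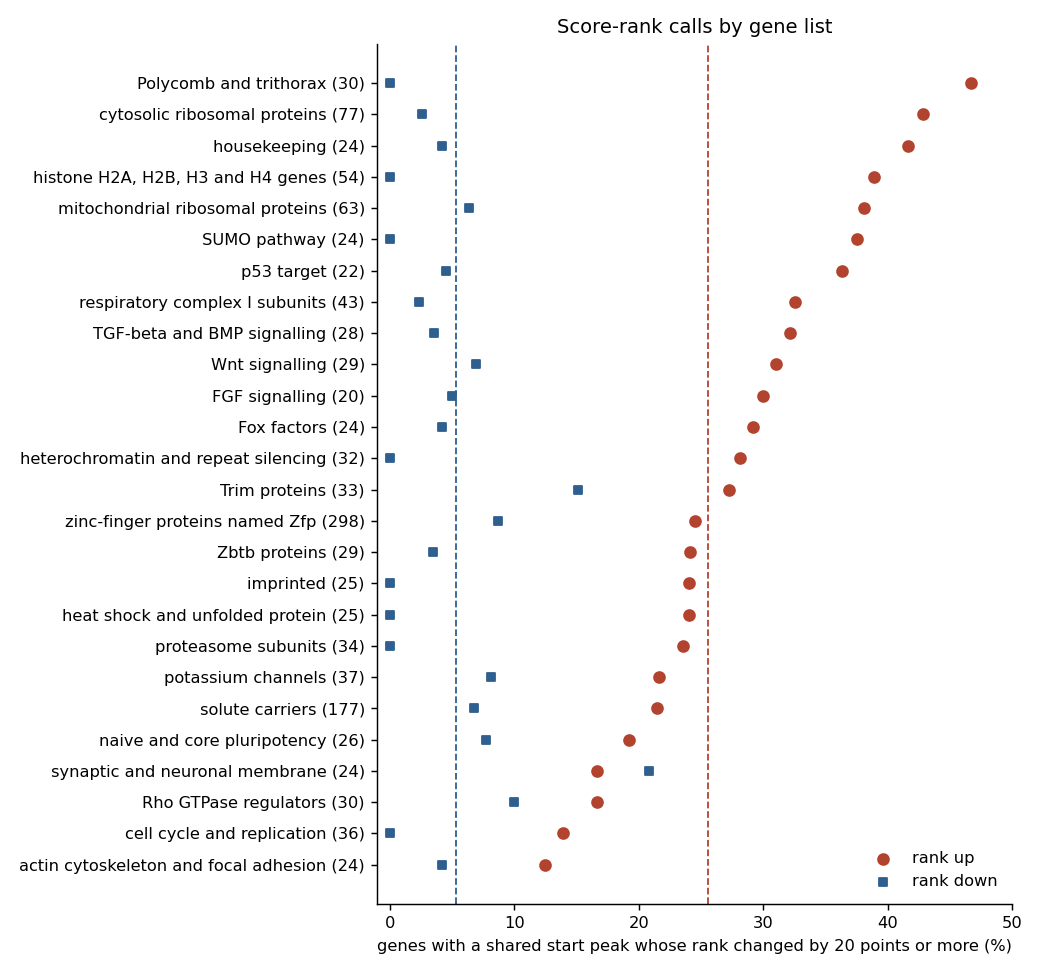
Share of genes with a shared start peak that moved by 20 percentile points or more up (red points) or down (blue squares), for the lists and families with 20 or more such genes (number in brackets). The dashed lines give the share over all genes, 25.6% up and 5.33% down. Polycomb and trithorax genes lie highest, and synaptic and neuronal membrane genes lie farthest to the right among the shares down.

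For genes without a protein product, of 7486 lncRNA genes without a control region within 1000 bp of a start, 333 (4.45%) had one in depleted cells, and of 2047 with one 430 (21.0%) had none. Of 865 miRNA hairpins without a control region within 1000 bp 29 (3.35%) had one in depleted cells, and of 140 with one 28 (20%) had none. For protein-coding genes the shares were 10.9% new and 7.02% lost, measured at a listed start or at gene ends. The hairpin window instead surrounds the hairpin, so the shares are not measured alike. Hairpins beside the same region each count. Mir23b, Mir27b, Mir3074-1 and Mir24-1 share a control-only region, and Mir434, Mir432, Mir3071 and Mir136 a depleted-only one. Some hairpins are called by the edge of the window. Mir292 and Mir292b count as depleted only although their region, the one at Mir290a, is shared. Such cases were not counted for lncRNA genes and hairpins. The hairpins of the stem cell miRNAs, chosen after their values were seen, are described with their mature forms from RefSeq, with the seed, bases 2 to 8, in capitals because it sets the targets.
miR-302b-3p: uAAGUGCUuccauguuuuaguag
miR-302d-3p: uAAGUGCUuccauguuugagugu
miR-290a-3p: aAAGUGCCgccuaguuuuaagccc
miR-17-5p: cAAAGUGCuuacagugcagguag
The forms of miR-302b and miR-302d share their seed, AAGUGCU, and lie on chromosome 3 beside 1 shared region (control chr3:127544666-127545224), which went from percentile 87.5 to 60.6 (score 400 to 201). The region at the miR-290 hairpin on chromosome 7 (seed AAGUGCC) stood at percentiles 55.6 and 72.1, and went from 595 to 952 bp. The region near the miR-17 hairpin on chromosome 14 (control chr14:115041805-115042721, score 219, seed AAAGUGC) had no counterpart within 1000 bp of the hairpin in depleted cells.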

How the data were processed

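ATAC-seq peak lists of 4 groups of mouse embryonic stem cells were used, 1 list per group made from both replicates. The authors deposited each region with its position and a score, with no header. The lowest score is 50.3 in the control list and 50.1 in the depleted list, and the score was read as minus 10 times log10 of the peak caller's p, used only to rank regions within a list. Per the submitters' processing notes, CASAVA 1.8.2, Bowtie2, Picard, MACS 1.4.2-1 and mm10 were used. Settings, how replicates were combined, and any shift of read positions for the transposase are not given in the sources used here. Of the scores, 90.8% in the depleted and 92.0% in the control list are multiples of 0.005, and of those 50.1% and 50.3% are multiples of 0.01, so a score may be a mean over 2 peak lists rather than 1 value from pooled reads. Deeper libraries give more and wider regions, and the depth is unknown.

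Regions were compared in Python 3.11.15 with numpy 2.4.6, pandas 2.3.3 and scipy 1.17.1, drawn with matplotlib 3.10.9, and the code was tested on simulated data. Starts, gene ends and sequences came from RefSeq (GRCm38.p6). Of the list genes, 823 matched a RefSeq symbol and 9 did not. A gene's pair was followed only where its start region had 1 partner. Comparisons were region against region in 2 lists, with no test. Alternatives were a score of 100 or more, the 20000 top-scoring regions, a reciprocal overlap of 50%, other start windows, whole-list ranks, autosomes other than 19, and genes with a listed start (added after seeing the data).

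Genes named were the markers; among those scoring 100 or more in both lists the 10 largest and smallest width ratios and the 10 largest gains and losses of percentile; the 10 highest-scoring genes with a start peak in 1 list only; per gene list up to 3 in 1 list only and 3 past a threshold; 5 windows and 5 unshared regions per direction. Provisional symbols were passed over for the first 3 of these rules after the markers, and genes sharing a peak counted once. Some genes these rules pick, and the check of the targeted gene, are not reported here. The members and lists were chosen with earlier results of these data known.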

Additional observations from a re-analysis of the deposited data

How the results depend on the processing

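Of 77 values computed under other settings, 57 moved by less than their interval or, for counts, by less than 1.5 times, 20 moved by more, and 0 reversed direction. Only the medians of width and rank change have a sign that could reverse. The shares and gene counts among these values have none. With a score of 100 or more, 45.1% of depleted and 42.7% of control regions were unshared, the median log2 width ratio of all pairs was 0.06 (0.0594), and the median rank change was 6.34 points at starts and -8.38 elsewhere. With the 20000 top-scoring regions, 43.4% of depleted and 43.4% (43.38%) of control regions were unshared. These shares nearly match by construction, since the lists then have equal length and most shared regions have 1 partner. The width ratio was 0.08 (0.0798) for all pairs and -0.01 (-0.0112) away from starts, where its interval ran from -0.02 to 0. The rank change away from starts was -10.7 points, and 951 genes were wider and 306 narrower. With an overlap of 50% of both regions, 50.8% and 48.8% were unshared, the width ratio was 0.04 (0.0375) for all pairs and 0.12 at starts, and 1031 genes were wider and 377 narrower, fewer by construction since large changes of width no longer count as shared. With whole-list ranks the change was 2.04 points at starts and -10.7 (-10.75) elsewhere, and on autosomes other than 19 the depleted-only share was 44.9%. Beyond what a setting's own construction shows, the cause was not tested. No paired analysis was possible because each list pools both replicates, and no replicate could be left out. Intervals cover counting error only, and the depth of the lists is unknown.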
